A study of Mus musculus with 8 samples.

Results

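The genes of the matrix metalloproteases (MMPs), the ADAMTS enzymes, the ADAMTS-like proteins (ADAMTSL) and the tissue inhibitors of metalloproteases (TIMPs) were examined in bulk RNA sequencing of mouse pancreatic tumours. They were chosen by symbol alone, as every gene of the deposited table named Mmp, Adamts, Adamtsl or Timp with a number. This gave 44 of the 19129 genes analysed, namely 19 MMPs, 17 ADAMTS enzymes, 5 ADAMTSL genes and 3 TIMPs. The tumours were isografts, that is mouse tumour material grown in recipient mice, and were taken fresh from 8 animals. Libraries from 4 mice are labelled control, and their treatment, if any, was not stated in the sources used here. Libraries from the other 4 mice are labelled MEKi. Their mice had trametinib for 7 days, a drug that blocks MEK1 and MEK2, the kinases that activate ERK. The strain, age, tumour genotype and number of tumour lines are likewise not given, and each library mixes tumour cells with the stroma, vessels and immune cells of the host.

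MMPs are zinc-dependent proteases that are made as inactive precursors and together can cut nearly every protein of the extracellular matrix. ADAMTS enzymes carry a related catalytic domain beside thrombospondin repeats. They cut proteoglycans such as versican, trim procollagens or act on blood proteins, while ADAMTSL proteins have the repeats without the protease. TIMPs bind the active site of MMPs and, in the case of TIMP3, also of ADAMTS enzymes. In pancreatic tumours these genes are expressed by cancer cells, fibroblasts, macrophages and neutrophils. Several MMP genes have promoter sites for AP-1, a dimer of FOS and JUN proteins, and ERK signalling is a known inducer of FOS family genes.

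Values are given on the deposited log2-like scale, on which a gene with 0 reads has 5.12. A step of 1 is near to 2 times as many reads where a gene is abundant, and a larger ratio where it has few reads. Reads in the genes analysed ranged from 20090101 to 38569550 per library. The drug label did not match the transcripts of Dusp6, which encodes an ERK phosphatase that ERK activity switches on. For replicates 1 to 4 in this order, as in all such series of values, Dusp6 stood at 12.19, 12.14, 9.31 and 9.24 under the control label and at 8.88, 12.12, 12.20 and 11.01 under the MEKi label. High and low libraries thus occurred under both labels, and every difference below is one between labels (MEKi minus control). Acinar markers (11 of 12 measured) had mean values of 15.18 and 16.78 in control replicates 2 and 3 and between 5.65 and 11.36 in the other libraries. The 9 markers of tumour epithelium averaged 12.34 in MEKi replicate 4 and between 13.19 and 13.43 elsewhere, while the 6 markers of myofibroblasts and smooth muscle were highest there (10.03, against 9.23 to 9.65). Fewer cells of a type and less RNA per cell cannot be told apart in such samples. The defining markers of epithelium, Epcam and Krt19, had at least 2495 and 17401 reads in every library.

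The genes of 2 inhibitors, Timp1 and Timp2, had the highest mean levels. Per kb of exon, Timp1 had a mean of 3805 normalised reads (lowest library 1243, highest 8206) and Timp2 had 3060 (2573 to 4002). Below them came Mmp2 with 1176 (693 to 1675), Mmp14 with 1145 (997 to 1319), Adamts1 with 1126 (821 to 1555) and Timp3 with 851 (495 to 1085). Their ranges overlap, so that the order among these 4 does not go beyond the spread between libraries. The range of Timp1 reaches into theirs, and in MEKi replicate 4 it lay below Mmp14. Mmp7 (797, from 118 to 1073), Adamtsl4 (547), Mmp12 (431) and Mmp13 (358) followed. At the other end, 7 members had a mean under 20 reads per library, namely Mmp16, Mmp24, Mmp27, Adamts3, Adamts13, Adamts17 and Adamts20, and differences of these genes are poorly measured. Mmp16 in MEKi replicate 2 and Mmp27 in control replicate 1 had 0 reads.

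**Figure D1:**
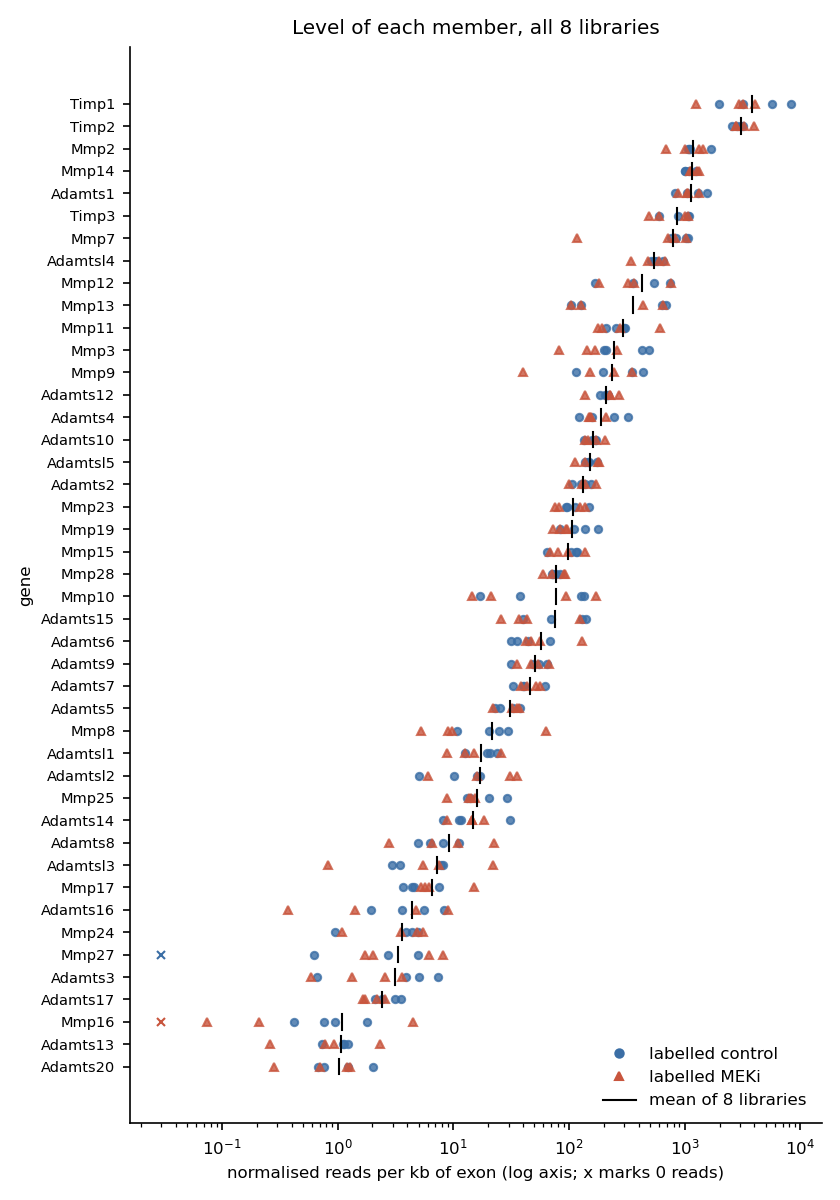
Level of each of the 44 members as reads divided by the library's size factor and by the exonic length in kb, on a log axis, with 1 point per library and a bar at the mean of 8 libraries. Timp1 and Timp2 lie highest, Mmp2, Mmp14 and Adamts1 follow, and Mmp7 and Mmp9 each have 1 MEKi library far below the others.

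The libraries labelled MEKi were compared with those labelled control. The mean of 20 genes of ERK output was 10.09 ± 0.79 under the control and 10.18 ± 0.68 under the MEKi label (SD, n = 4 each). As the labels do not separate high from low ERK output, this comparison cannot tell what blocking MEK does to the members. None of the 44 members passed the test. Limma called 0 members over all genes tested (0.00523% of all genes were called), and 1 member had an unadjusted p under 0.05, against 1.77% of all genes. With voom on recovered reads these counts were 0 and 2, against 1 and 385 over all 19129 genes. The 1 member was lower under the MEKi label, as were 1.3% of all genes at this p. Labels overlapped for every member, while they did not overlap for 1.27% of all genes (0.701% with lower values under the MEKi label). Means were lower under the MEKi label for 27 members and higher for 17, and lower for 48.4% of all genes. The median difference was -0.14 for the MMPs, -0.01 for the ADAMTS genes, -0.01 for the ADAMTSL genes and -0.23 for the TIMPs, beside 0.01 for all genes. Single libraries moved these medians: leaving out 1 gave -0.31 to -0.02 for the MMPs and -0.42 to -0.04 for the TIMPs, and the acinar covariate gave 0.11 for the TIMPs. The MMP median was nearest to 0 without control replicate 2 or MEKi replicate 2 and lowest without MEKi replicate 3. The intervals are wide for the genes that vary most between tumours. They reached from -1.75 to 1.43 for Mmp13, so that this design leaves a large difference in either direction possible for that gene.

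**Figure D2:**
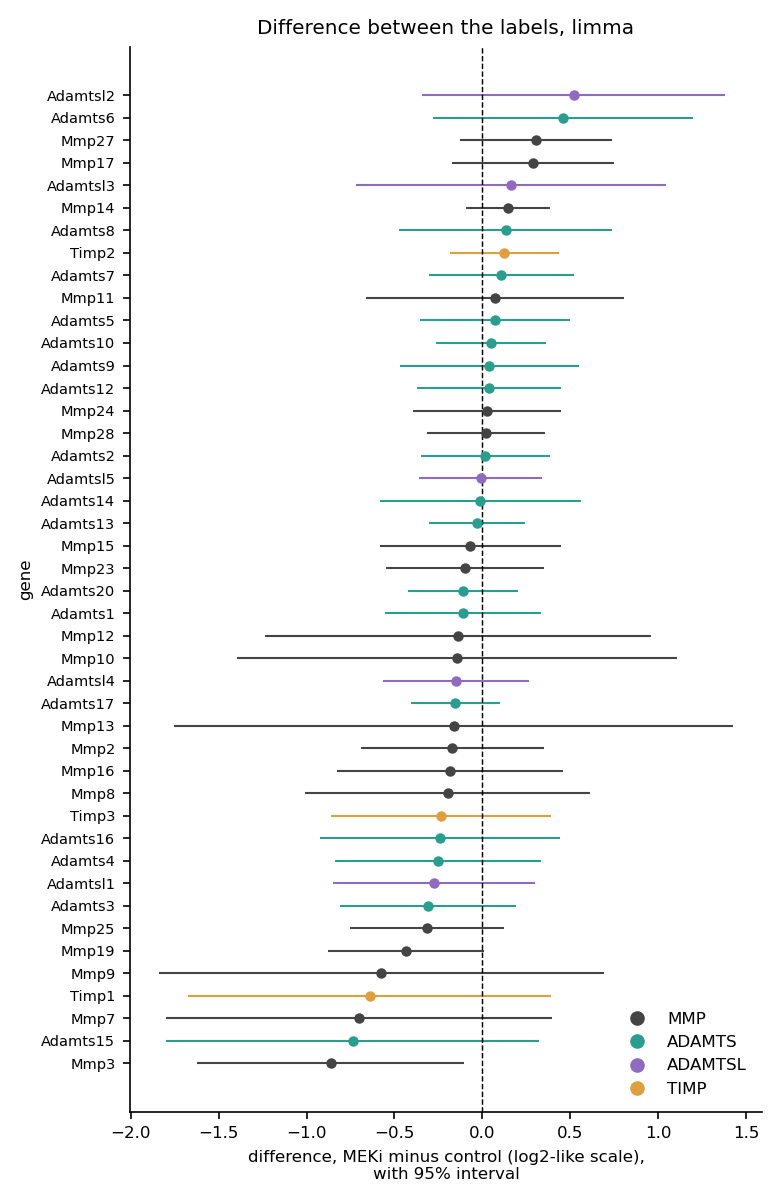
Difference between the mean of the 4 MEKi libraries and the mean of the 4 control libraries for each member, in order, with the 95% interval from limma and the family as colour. The intervals of all members but Mmp3 include 0.

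The member with the smallest p was Mmp3, which encodes stromelysin-1, a protease with broad specificity that also activates other MMP precursors. Its values were 8.74, 9.88, 9.70 and 8.78 under the control label and 9.06, 8.34, 7.72 and 8.53 under the MEKi label. The highest libraries were control replicates 2 and 3, and the lowest was MEKi replicate 3. The difference was -0.86 (SE 0.34, 95% interval -1.62 to -0.10), with an unadjusted p of 0.03 and a limma adjusted p of 1. The unadjusted p was 0.0882 without control replicate 2, 0.0819 without control replicate 3, 0.0591 without MEKi replicate 2 and 0.0825 without MEKi replicate 3. It stayed under 0.05 without control replicate 1 or 4, or MEKi replicate 1 or 4. Without MEKi replicate 1 the difference was -1.08. The difference was -0.33 with the acinar score as a covariate and -0.35 without control replicates 2 and 3, the libraries rich in acinar markers. Mmp3 ordered 22 of the 28 pairs of libraries as the acinar score did, and 23 as the fibroblast and as the mesothelial score did. The part of these cells in the difference was not tested beyond those fits.

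Mmp3 belongs to a cluster of MMP genes on chromosome 9, which spans 7272514 to 7699585 (GRCm38, GENCODE annotation). It holds 9 protein-coding genes within 427 kb, all of them MMPs, of which 7 are in the table. In genome order these are Mmp13, Mmp12, Mmp3, Mmp10, Mmp8, Mmp27 and Mmp7, all on the plus strand. Neighbours differed widely in how they varied between tumours. The 100 bases before their transcription starts are shown because 5 of the 7 promoters hold TGANTCA, printed in capitals. This pattern takes any base at N and is looser than the AP-1 consensus, which has C or G there. All matches printed here have C or G. The sequences are from RefSeq for GRCm38.p6, 5′ to 3′ on the plus strand. Mmp12 has a pair of RefSeq starts and is shown for the downstream one, which lies inside the gene as GENCODE draws it. Mmp7 is shown for the upstream one of its starts. The windows at the other starts of these genes hold no match.
Mmp13 (chr9:7272414-7272513): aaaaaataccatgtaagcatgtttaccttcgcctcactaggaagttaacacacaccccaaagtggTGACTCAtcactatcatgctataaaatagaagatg
Mmp12 (chr9:7347274-7347373): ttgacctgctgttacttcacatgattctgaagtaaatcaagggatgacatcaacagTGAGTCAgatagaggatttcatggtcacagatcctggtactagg
Mmp3 (chr9:7445722-7445821): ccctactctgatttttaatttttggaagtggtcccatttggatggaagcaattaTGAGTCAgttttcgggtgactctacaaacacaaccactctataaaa
Mmp10 (chr9:7502242-7502341): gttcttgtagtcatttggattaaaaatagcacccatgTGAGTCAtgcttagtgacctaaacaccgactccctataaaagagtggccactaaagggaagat
Mmp8 (chr9:7558329-7558428): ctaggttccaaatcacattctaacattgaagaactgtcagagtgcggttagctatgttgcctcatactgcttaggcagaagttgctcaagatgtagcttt
Mmp27 (chr9:7571296-7571395): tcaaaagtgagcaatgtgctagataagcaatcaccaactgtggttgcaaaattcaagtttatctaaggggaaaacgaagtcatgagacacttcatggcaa
Mmp7 (chr9:7691990-7692089): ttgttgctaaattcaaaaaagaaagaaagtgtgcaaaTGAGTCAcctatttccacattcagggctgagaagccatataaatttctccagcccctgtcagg

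The first base of the match lies 35 bases before the start in Mmp13, 44 in Mmp12, 46 in Mmp3, and 63 in both Mmp10 and Mmp7. The motif reads the same on both strands, so that a single search covers both. With any base at N, it was found in 7.81% of 32851 RefSeq promoter windows of 300 bases (250 before and 50 after a start). Counted by gene, 7.07% of the 12832 analysed genes with such a window hold it. Of the 30 members with such a window these 5 hold it, and the other 25 do not. A match is a description of the letters, not a bound site.

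Mmp13 encodes collagenase-3, which cleaves fibrillar collagens. Its values were 10.90, 10.78, 8.43 and 8.67 under the control label and 8.65, 10.81, 10.26 and 8.41 under the MEKi label. They lay at separate levels, from 10.26 to 10.90 in control replicates 1 and 2 and MEKi replicates 2 and 3, and from 8.41 to 8.67 in the other 4 libraries, with nothing between. Normalised reads differed 6.70-fold between the highest and the lowest library, and the difference between the labels was -0.16 (SE 0.71, 95% interval -1.75 to 1.43). Its sign turned without control replicate 1, control replicate 2, MEKi replicate 1 or MEKi replicate 4.

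Mmp10 encodes stromelysin-2, and is described in full although the naming rule left it out, since it was chosen after its values were seen. It had 8.15, 8.22, 6.96 and 6.39 under the control label and 6.54, 8.48, 7.82 and 6.30 under the MEKi label. The same 4 libraries were high as for Mmp13, from 7.82 to 8.48, and the others lay between 6.30 and 6.96. With 24 to 270 reads per library, it differed 11.7-fold between extremes, and by -0.14 between the labels (SE 0.56). Mmp12, the macrophage elastase gene, varied with less of a gap, with 12.43, 11.95, 11.38 and 10.32 under the control and 11.39, 12.44, 11.25 and 10.44 under the MEKi label. Control replicate 1 and MEKi replicate 2 were highest, control replicate 4 and MEKi replicate 4 were lowest, and the difference between labels was -0.14 (SE 0.49, 95% interval -1.24 to 0.96). The 8 macrophage markers averaged between 11.10 and 11.90 in all libraries, a narrower range, and Mmp12 ordered 13 of the 28 pairs of libraries as they did.

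Mmp7 encodes matrilysin, a small protease made by epithelial cells. It had 10.25, 9.92, 9.79 and 10.17 under the control label and 9.90, 10.17, 9.69 and 7.56 under the MEKi label. In 7 libraries it stayed between 9.69 and 10.25, and MEKi replicate 4, where the epithelial markers were also lowest, stood alone at 7.56. The difference of -0.70 (SE 0.49, 95% interval -1.80 to 0.40) was -0.11 without that library and -1.17 (unadjusted p 0.057) with the acinar score as a covariate. Mmp8, which encodes the collagenase stored in neutrophil granules, had 7.05, 6.90, 6.33 and 6.75 under the control and 6.28, 5.98, 7.76 and 6.23 under the MEKi label, from between 10 and 188 reads. Its highest library was MEKi replicate 3, in which the 8 neutrophil markers also had their highest mean (10.62, against 8.54 to 10.23 in the others). Over all libraries Mmp8 ordered 26 of the 28 pairs as the macrophage, 24 as the mast cell and 21 as the neutrophil markers did. The part of these cells was not tested. Its difference was -0.20 (SE 0.36, 95% interval -1.01 to 0.61), and -0.60 (unadjusted p 0.0128) without MEKi replicate 3. Mmp27, the remaining gene of the cluster, had 22 reads at most.

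The gelatinases, which digest denatured collagen and basement membrane collagen, showed different patterns. Mmp2 (chromosome 8, 92827291 to 92853420, GRCm38), a gene of fibroblasts, had 11.83, 12.48, 11.89 and 11.88 under the control label and 12.14, 11.23, 12.27 and 11.77 under the MEKi label. Control replicate 2 was highest and MEKi replicate 2 lowest, and the difference was -0.17 (SE 0.23, 95% interval -0.69 to 0.35). It ordered 22 of the 28 pairs of libraries as the 8 fibroblast markers did, 22 as the macrophage, 24 as the mast cell and 21 as the neutrophil markers. Mmp9 (chromosome 2, 164940780 to 164955850), which neutrophils, macrophages and tumour cells can make, had 10.35, 10.64, 9.57 and 8.88 under the control and 9.24, 10.35, 9.86 and 7.68 under the MEKi label. The 4 highest libraries were again control replicates 1 and 2 and MEKi replicates 2 and 3, and MEKi replicate 4 was far below all others. Normalised reads differed 10.7-fold between extremes. The difference between the labels was -0.58 (SE 0.56, 95% interval -1.84 to 0.69). It was -0.04 without MEKi replicate 4, -0.93 without MEKi replicate 2 and -0.90 without control replicate 4. The neutrophil and the epithelial markers were lowest in MEKi replicate 4 too. Over all libraries Mmp9 ordered 26 of the 28 pairs as the endothelial, 20 as the macrophage, 19 as the epithelial and 15 as the neutrophil markers did, and the part of these cells was not tested.

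Membrane-bound MMPs varied little where they were abundant. Mmp14 (chromosome 14, 54431612 to 54445364, GRCm38) encodes MT1-MMP, a cell-surface collagenase that activates the MMP2 precursor. It had 12.68, 12.88, 12.58 and 12.55 under the control and 12.72, 12.70, 12.89 and 12.95 under the MEKi label, within a range of 0.40 and with overlapping labels. Its difference of 0.15 (SE 0.11, 95% interval -0.09 to 0.38) was positive in each fit tried, and its values ordered 25 of the 28 pairs of libraries as their total reads did. What part depth had in it was not tested. Mmp17, which encodes MT4-MMP, had 6.39, 6.76, 6.42 and 6.29 under the control and 6.55, 6.61, 7.34 and 6.50 under the MEKi label, with MEKi replicate 3 alone above 7. Its difference was 0.29 (SE 0.21, 95% interval -0.17 to 0.75), and 0.09 without that library. Mmp15 (MT2-MMP) lay at 9.22 ± 0.35 against 9.16 ± 0.39 (SD, n = 4 each, control first), and Mmp25 (MT6-MMP, known from neutrophils) at 7.32 ± 0.35 against 7.00 ± 0.20. Mmp16 had 48 reads at most and Mmp24 had 28.

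Among the other MMPs, Mmp19, which cleaves basement membrane proteins, came closest to Mmp3 in p. It lay at 8.97 ± 0.40 against 8.54 ± 0.16 (SD, n = 4 each), a difference of -0.44 (SE 0.20, 95% interval -0.88 to 0.01) with an unadjusted p of 0.0533 and a limma adjusted p of 1. The difference was -0.28 without control replicate 2, its highest library at 9.44, and -0.59 (unadjusted p 0.0094) without control replicate 4. Mmp11, the stromelysin-3 gene of fibroblasts near carcinoma cells, lay at 9.64 ± 0.23 against 9.72 ± 0.76, with MEKi replicate 4 at 10.79 and the other 7 libraries between 9.14 and 9.84. Mmp23 (8.35 ± 0.25 against 8.25 ± 0.35) and Mmp28 (8.49 ± 0.09 against 8.51 ± 0.25), which encodes epilysin, differed by -0.10 and 0.02.

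**Figure D3:**
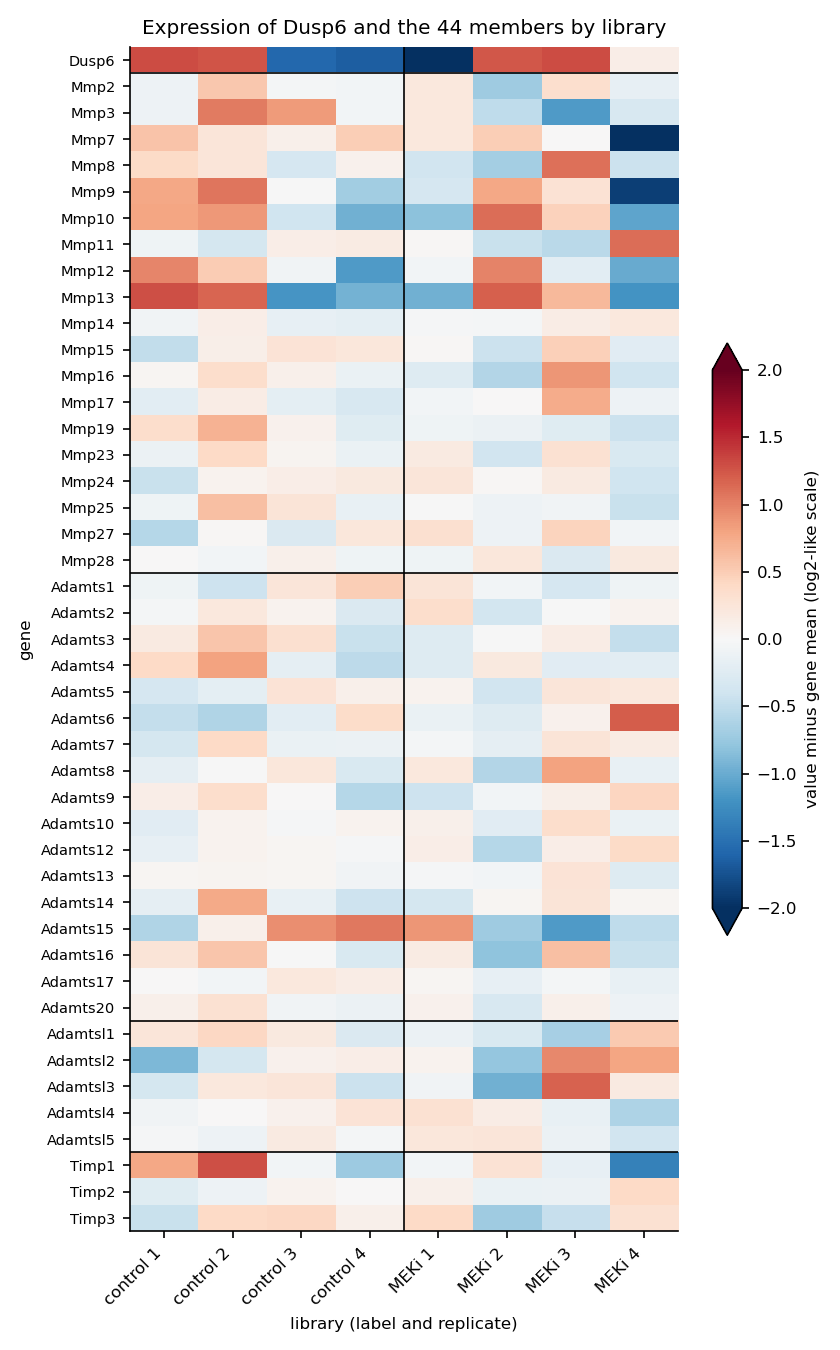
Value of Dusp6 (top) and of each member in each library minus the gene's own mean over 8 libraries, on the deposited log2-like scale, with colours saturating at 2. Mmp13 and Mmp10 are high in control 1 and 2 and MEKi 2 and 3, Adamts15 is high in control 3 and 4 and MEKi 1, and no row separates the labels.

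The ADAMTS enzymes were described by the substrates they are known for. Adamts1, Adamts4 and Adamts15 cut versican and related proteoglycans. Adamts1 (chromosome 16, 85793827 to 85803113, GRCm38), the most abundant, had 12.45, 12.11, 12.77 and 13.02 under the control and 12.79, 12.48, 12.19 and 12.44 under the MEKi label. Control replicates 3 and 4 and MEKi replicate 1 were the 3 highest, from 12.77 to 13.02, and the others lay between 12.11 and 12.48. The difference between the labels was -0.11 (SE 0.20, 95% interval -0.56 to 0.33). Adamts15 (chromosome 9, 30899155 to 30922452) had 8.91, 9.62, 10.45 and 10.57 under the control and 10.40, 8.81, 8.38 and 9.01 under the MEKi label. The same 3 libraries were highest, from 10.40 to 10.57, and the other 5 lay between 8.38 and 9.62. Its normalised reads differed 5.44-fold between extremes and its labels by -0.74 (SE 0.47, 95% interval -1.80 to 0.32). The difference was -1.16 (unadjusted p 0.016) without MEKi replicate 1 and -0.48 without MEKi replicate 3.

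Adamts4 had 10.27, 10.67, 9.69 and 9.35 under the control and 9.60, 10.06, 9.64 and 9.66 under the MEKi label. Control replicates 1 and 2 and MEKi replicate 2 were above 10, the others between 9.35 and 9.69, and the difference was -0.25 (SE 0.26, 95% interval -0.84 to 0.34). It was -0.03 without control replicate 2 and -0.47 without control replicate 4. Adamts5, the other main aggrecanase gene, lay at 8.58 ± 0.28 against 8.65 ± 0.29 and Adamts9 at 9.64 ± 0.40 against 9.68 ± 0.35 (SD, n = 4 each). Adamts8 lay at 6.50 ± 0.23 against 6.63 ± 0.59 and Adamts20 had 21 reads at most.

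Adamts2, Adamts3 and Adamts14 encode enzymes that remove the N-propeptides of fibrillar procollagens. Adamts2 was the abundant one, at 10.33 ± 0.21 against 10.35 ± 0.30. Adamts14 had 6.87, 7.81, 6.90 and 6.64 under the control and 6.69, 7.08, 7.30 and 7.09 under the MEKi label, with control replicate 2 alone above 7.5, and differed by -0.01 (SE 0.26, 95% interval -0.58 to 0.56). The sign of that value turned under quantile normalization (0.04) and aligned medians (0.02). Adamts12 and Adamts7, which cut cartilage oligomeric matrix protein, varied little. Adamts12 had 11.02, 11.25, 11.23 and 11.17 under the control and 11.32, 10.62, 11.32 and 11.56 under the MEKi label, lowest in MEKi replicate 2, with a difference of 0.04 (SE 0.18, 95% interval -0.37 to 0.44). Adamts7 lay at 8.38 ± 0.32 against 8.49 ± 0.20. Adamts10, an enzyme of fibrillin microfibrils, had 10.21, 10.51, 10.42 and 10.52 under the control and 10.54, 10.22, 10.79 and 10.30 under the MEKi label, a difference of 0.05 (SE 0.14, 95% interval -0.27 to 0.36). Its relative Adamts6 lay at 8.65 ± 0.43 against 9.11 ± 0.67, with MEKi replicate 4 at 10.09 and all others at or below 9.24. Its difference was 0.46, and 0.13 without that library. Adamts13, the von Willebrand factor protease of liver and vessels, had 14 reads at most. Adamts16 (6.43 ± 0.37 against 6.19 ± 0.63) and Adamts17 (6.22 ± 0.12 against 6.07 ± 0.10) were also low.

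ADAMTSL proteins bind fibrillin microfibrils. Adamtsl4, the most abundant of them, had 11.12, 11.19, 11.27 and 11.45 under the control and 11.49, 11.33, 11.04 and 10.57 under the MEKi label, lowest in MEKi replicate 4. The difference was -0.15 (SE 0.18, 95% interval -0.56 to 0.26), and 0.03 without that library. Adamtsl5 had 9.58, 9.49, 9.79 and 9.57 under the control and 9.84, 9.85, 9.49 and 9.22 under the MEKi label, within a range of 0.63, and differed by -0.01 (SE 0.16, 95% interval -0.36 to 0.34). Adamtsl2 lay at 7.24 ± 0.48 against 7.76 ± 0.79 (SD, n = 4 each), the largest positive difference of a member (0.52, interval -0.34 to 1.38). That difference was 0.86 (unadjusted p 0.022) without MEKi replicate 2 and 0.29 without MEKi replicate 3. Its values were high in MEKi replicates 3 and 4 (8.46 and 8.29) and lower in MEKi replicate 2 (6.73) than in 3 of the control libraries. Adamtsl3 lay at 6.61 ± 0.36 against 6.78 ± 0.88, from 5 reads in MEKi replicate 2 to 208 in MEKi replicate 3. Adamtsl1 lay at 8.25 ± 0.30 against 7.98 ± 0.49.

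Of the inhibitors, Timp1 varied most. This soluble inhibitor (chromosome X, 20870166 to 20874735, GRCm38) is induced by cytokines and growth factors and had 12.32, 12.85, 11.50 and 10.82 under the control and 11.49, 11.85, 11.39 and 10.20 under the MEKi label. Control replicate 2 was highest and MEKi replicate 4 lowest, with 6.60-fold between their normalised reads. The difference of -0.64 (SE 0.46, 95% interval -1.67 to 0.39) was -0.29 without MEKi replicate 4 and -0.32 without control replicate 2, but -0.99 (unadjusted p 0.0426) without control replicate 4. Timp2 (chromosome 11, 118301069 to 118355740), which forms a complex with MT1-MMP that activates the MMP2 precursor, had 13.30, 13.44, 13.61 and 13.55 under the control and 13.64, 13.41, 13.42 and 13.94 under the MEKi label. MEKi replicate 4 was highest, and the difference was 0.12 (SE 0.14, 95% interval -0.18 to 0.43), and 0.01 without that library. Timp3 (chromosome 10, 86300372 to 86349506), an inhibitor bound to the matrix, had 12.28, 13.11, 13.12 and 12.82 under the control and 13.11, 12.00, 12.26 and 13.02 under the MEKi label, lowest in control replicate 1 and MEKi replicates 2 and 3. It differed by -0.23 (SE 0.28, 95% interval -0.86 to 0.39), by -0.42 without control replicate 1, by -0.04 without MEKi replicate 2 and by 0.11 with the acinar score as a covariate. Timp3 ordered 23 of the 28 pairs of libraries as the acinar score did, and 22 as the fibroblast and as the mesothelial score did. Timp1 and Timp3 each overlap a gene on the opposite strand, Syn1 and Syn3, and whether the authors counted by strand was not stated in the sources used here. The same holds for Adamts7 with Tbc1d2b, Mmp19 with Tmem198b, Mmp11 with Chchd10 and Mmp12 with Mmp1b, and Mmp24, Mmp28 and Adamts9 also overlap transcripts of the opposite strand. Whether reads of these partners were counted with those of the members is therefore not known.

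The members were then set against Dusp6 as a readout of ERK activity. Dusp6 lay between 12.12 and 12.20 in 4 libraries, at 11.01 in MEKi replicate 4, and between 8.88 and 9.31 in the other 3. As these are separate clusters, no correlation across the 8 libraries is given and the relation was not tested. Instead, the pairs of libraries that a gene orders as Dusp6 does were counted out of 28, with a tie counting 0.5. No member reached 24 of 28, a mark passed by 1.82% of all genes and by 5 of the 19 other genes of a list of ERK output. No member was at or below 4, where 1.57% of all genes were. The highest counts among members with at least 20 reads on average were 21 for Adamts14 and 20 for Mmp8, Mmp9, Mmp17 and Adamts4. The lowest were 5 for Adamts1, Adamts15 and Adamtsl4 and 7 for Timp2.

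Many of these pairs join libraries with nearly equal Dusp6, so further measures were added after the values had been seen. Dusp6 differed by at least 1 in 19 of the pairs. Mmp9, Mmp10, Mmp13, Adamts4 and Adamts14 ordered 16 of these as Dusp6 did. A mark of 17 was reached by 0 of 44 members, by 6.7% of all genes and by 15 of the 19 ERK output genes. Adamts15 ordered 1 and Adamts1 ordered 2 of the 19 pairs as Dusp6 did, so that nearly all ran the other way, as for 5.6% of all genes. The 4 libraries with the highest Dusp6 were also the 4 highest for Mmp9, Mmp10 and Mmp13, that is for 3 of 44 members against 6.59% of all genes and 14 of the 19 ERK output genes. They were the 4 lowest for Mmp11 and Timp2, that is for 2 of 44 members against 7.38% of all genes. The counts of members running against Dusp6, or with the same 4 libraries highest or lowest, lie close to these shares of all genes. The count of 0 at the mark of 17 lies below its share of 6.7%.

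**Figure D4:**
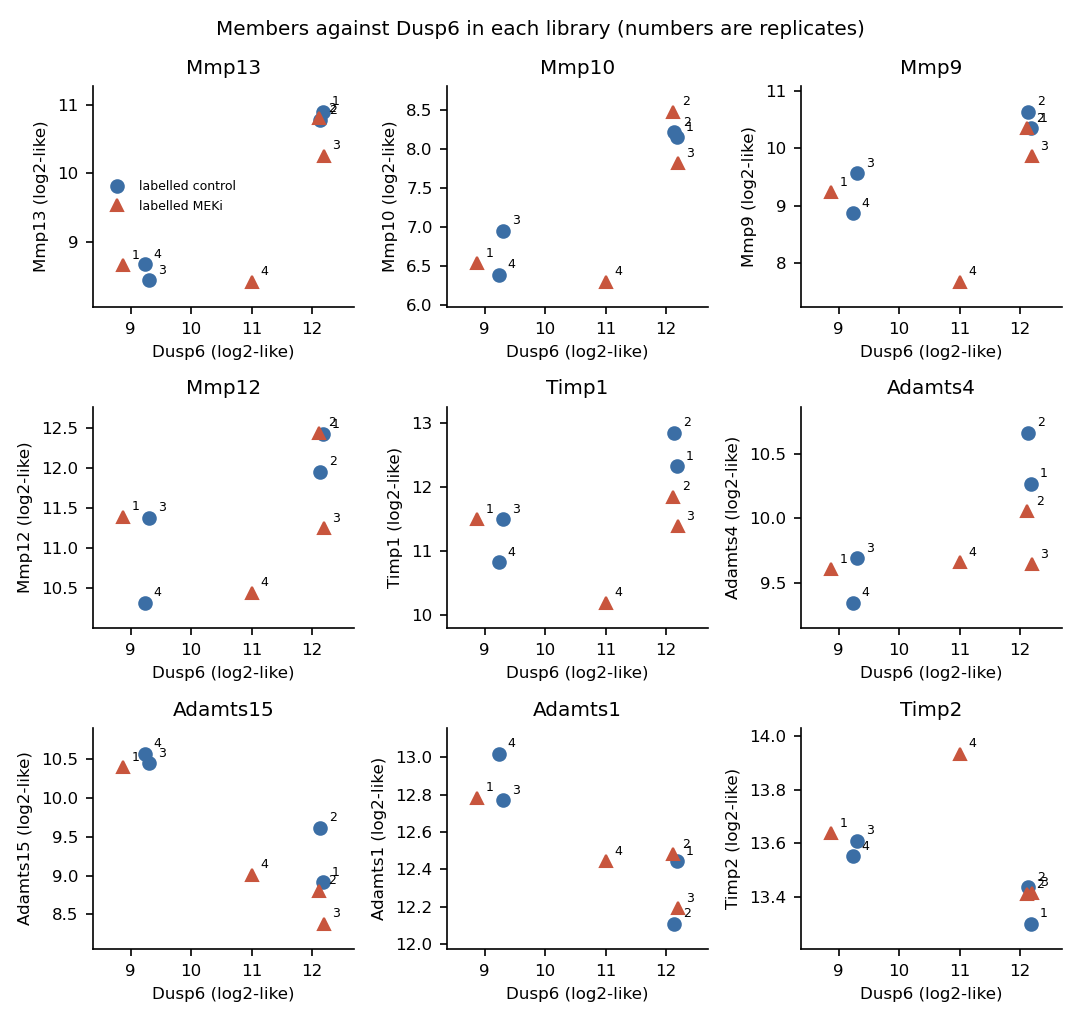
Value of 9 members against Dusp6 in the same library, both on the deposited log2-like scale, with labels as colours and shapes and replicate numbers beside the points. Mmp13, Mmp10 and Mmp9 are high in the 4 libraries with Dusp6 above 12 and lowest in MEKi 4 despite its Dusp6 of 11.01, while Adamts15 and Adamts1 are highest in the 3 libraries with Dusp6 below 10.

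MEKi replicate 4 departed from this order. There Dusp6 was 11.01 but these genes were at their lowest, at 8.41, 6.30 and 7.68. Without it, Mmp9 ordered 16, Mmp13 15 and Mmp10 14 of 21 pairs as Dusp6 did. Other readouts gave different counts. With Spry4, another feedback gene of the pathway, Mmp10 ordered 25 of 28 pairs alike, Mmp9 and Adamts4 23, and Mmp12 and Adamts14 22. Timp1 ordered 21 as Spry4 did, and Mmp13 and Adamts9 ordered 20. With the mean of the 20 ERK output genes Mmp10 ordered 24, Mmp12 23, Mmp9 and Adamts4 22, and Mmp13 and Adamts14 21. Mmp8, at 20 with Dusp6, ordered only 13 pairs as Spry4 and 14 as the ERK output mean did. Adamtsl4, at 5 with Dusp6, ordered 12 and 11. The other extremes moved less, with 19 and 18 for Mmp17, 6 and 7 for Adamts1, 6 and 5 for Adamts15, and 8 and 7 for Timp2. No share of all genes is given for these readouts. Markers of endothelium (6 of 6 measured, mean 9.05 to 10.26 in the control and 9.11 to 9.83 in the MEKi libraries) moved with the same libraries. They ordered 22 of 28 pairs as Dusp6 did, 26 as Mmp9 and Adamts4 did, and 24 as Mmp10 and Timp1 did. The endothelial marker Pecam1 had at least 719 reads in every library. What part the vessels had in these patterns was not tested.

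Over the 946 pairs of members, the median count of library pairs ordered alike was 15 of 28. In 25 of them it was at least 24 and in 14 at most 4, and the following are among these extremes. Mmp2 and Mmp23 ordered 27 of 28 pairs alike. Mmp9 ordered 26 pairs as both Mmp10 and Timp1 did. Mmp13 fell just short of the mark of 24, with 23 pairs ordered as Mmp9 and Mmp10 did. Adamts6 and Timp1 ordered all 28 pairs in opposite ways. The range over the 8 libraries was at least 2 for 9 of 44 members, against 3.11% of all genes. These were Mmp3, Mmp7, Mmp9, Mmp10, Mmp12, Mmp13, Adamts15, Adamtsl3 and Timp1, of which 5 lie in the chromosome 9 cluster. Control replicate 2 was the highest library for 12 members, against 10.9% of all genes, and MEKi replicate 3 for 11, against 16%. MEKi replicate 2 was the lowest library for 13 members, against 12.5% of all genes, and MEKi replicate 4 for 11, against 21.6%.

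Genes around the members were read from lists of activators and other proteases, of matrix substrates, and of AP-1 and ETS transcription factors. Of 34 measured activators, receptors and proteases, limma called 0 and 1 had an unadjusted p under 0.05, the trypsin gene Prss2, which is also an acinar marker and was lower under the MEKi label (difference -4.62, unadjusted p 0.0482, limma adjusted p 1). The following examples from the lists were chosen after their values were seen. The urokinase receptor gene Plaur, whose ligand activates plasminogen and through it MMPs, had 11.97, 12.12, 10.73 and 10.38 under the control and 10.54, 12.30, 11.52 and 10.42 under the MEKi label. Its high libraries were those of Mmp13. Plau, which encodes urokinase, had 10.19, 10.30, 9.59 and 9.47 under the control and 9.70, 9.90, 9.81 and 9.59 under the MEKi label, with a smaller spread. Reck, a membrane-anchored MMP inhibitor gene, lay at 7.38 ± 0.22 against 7.50 ± 0.37, and Bsg, which encodes the MMP inducer EMMPRIN, at 14.33 ± 0.15 against 14.37 ± 0.32 (SD, n = 4 each). Adam10 and Adam17, the main sheddase genes, differed by -0.08 and 0.04.

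Of 26 measured substrate genes limma called 0, with 0 at an unadjusted p under 0.05. Means were lower under the MEKi label for 20 of them, and for 48.4% of all genes. The list shares Col1a1, Col1a2, Col3a1, Dcn and Lum with the 8 fibroblast markers, of which 7 were lower. The collagen gene Col1a1 lay at 14.85 ± 0.66 against 14.65 ± 0.38, the versican gene Vcan at 11.43 ± 0.43 against 11.14 ± 0.62 and the tenascin gene Tnc at 12.65 ± 1.11 against 12.52 ± 1.06. Of 14 transcription factor genes limma called 0, with 0 at an unadjusted p under 0.05. The AP-1 gene Fosl1 had 8.76, 9.03, 7.16 and 7.03 under the control and 7.25, 9.06, 8.60 and 7.25 under the MEKi label. It was high in the libraries in which Mmp13 was high and low in MEKi replicate 4. Of the 5 members found to hold TGANTCA, Mmp10 ordered 24 of 28 pairs as Fosl1 did, Mmp12 23, Mmp13 21, Mmp7 16 and Mmp3 11. Mmp9 and Adamts4, which are not among these 5, each ordered 22. No share of all genes is given for Fosl1, and a part of the motif in these orders was not tested. Jun ran opposite to Fosl1, with 11.04, 11.08, 11.99 and 12.09 under the control and 11.83, 11.16, 10.70 and 11.67 under the MEKi label. It ordered 2 of 28 pairs as Dusp6 did.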

How the data were processed

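Each library is RNA sequencing of 1 fresh tumour. Reads were aligned to GRCm38 with STAR 2.5.3a and processed with DESeq2 1.18.1, per the submitters' processing notes. The gene annotation, counting step and strand setting were not stated in the sources used here. The deposited table of the authors holds values on a log2-like scale that, from the values, has the form of a variance-stabilising transformation, with 19431 rows, of which 32 name no gene (0.101 to 0.167% of reads) and were left out. Where a symbol was repeated (86 symbols), its most abundant row stood for the gene, which left 19129 genes, each with at least 25 reads in total. Whole reads were recovered from the scale (100% of values within 0.01 of a whole number), giving 20090101 to 38569550 reads per library.

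Labels were compared on the deposited log2 values with limma 3.58.1 in R 4.3.3 (trended moderation, Benjamini-Hochberg adjustment over all genes, threshold 0.05, no covariate), 4 libraries against 4. These come from 8 mice. The members and gene lists were chosen with earlier results of these data known. Members given in all 8 libraries were the 4 MMP, 4 ADAMTS and 2 ADAMTSL genes with the most reads per kb, every TIMP, members at an unadjusted p under 0.05, the 4 most and 4 least ordered as Dusp6 (mean of at least 20 reads), and the 5 with the largest range. Mmp10, Mmp11, Mmp19, Adamts6, Adamtsl2 and Adamtsl3 were singled out after their values were seen. Alternatives were robust or untrended moderation, quantile normalization, aligned medians, filters, voom on recovered reads, an acinar covariate, the replicate block, each library left out, and other readouts of ERK. The script was tested on simulated data. Figures were drawn with matplotlib 3.10.9.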

Additional observations from a re-analysis of the deposited data

Results flagged for a closer look

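In 4 of 88 groups tested (each member under each label), 1 library stood apart from the other 3 by more than Dixon's 95% critical value for 4 samples. Chance alone gives about 1 in 20. Mmp2 was 12.48 in control replicate 2, with a gap of 0.907 of the range of its label. Mmp8 was 7.76 in MEKi replicate 3, with a gap of 0.832. Mmp17 was 7.34 in MEKi replicate 3, with a gap of 0.867. Adamts4 was 10.06 in MEKi replicate 2, with a gap of 0.869.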

How the results depend on the processing

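No member was called in any alternative. Over all genes limma called 1, against 0 with the highest 75% of genes, 0 with the acinar score as covariate, 0 with the replicate block, 4 without both libraries richest in acinar markers (chosen after seeing the data), and 0 to 2 when 1 library was left out. Members at an unadjusted p under 0.05 (1 as reported) were 2 with no trend and 2 with voom (Mmp3 and Mmp19 in both), 0 with the acinar covariate, 0 without both acinar-rich libraries, 3 with the replicate block (Mmp19, Adamts6 and Timp1), and 0 to 5 with 1 library left out. They were 0 without control replicate 2 or 3, 2 without control replicate 1, MEKi replicate 1, 3 or 4, 1 without MEKi replicate 2 (Adamtsl2), and 5 without control replicate 4. Over all 19129 genes this count was 338 as reported, 625 without control replicate 4, 380 with the replicate block and 385 with voom. With 1 library left out it reached from 237 (without control replicate 3) to 676 (without MEKi replicate 1). Libraries sharing a number had correlations of deviations of -0.33, 0.20, -0.46 and 0.02, and 1 of 8 matched its own number best, so the block is not the main fit. Family medians moved by less than 1 SD, between libraries, of the family's median value, but the MMP median ranged from -0.31 to -0.02 and the TIMP median from -0.42 to -0.04 with 1 library left out, and the TIMP median turned to 0.11 with the acinar covariate and 0.049 without both acinar-rich libraries.

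Signs turned with 1 library left out for 21 of 44 members. Among the 20 named by rule these were Mmp2 (-0.31 to 0.036), Mmp12 (-0.54 to 0.17), Mmp13 (-0.59 to 0.24), Adamts1 (-0.27 to 0.034), Adamts10 (-0.062 to 0.13), Adamts12 (-0.082 to 0.23), Adamts14 (-0.15 to 0.24), Adamtsl4 (-0.28 to 0.029) and Adamtsl5 (-0.093 to 0.12). The other 12 were Mmp10 (-0.54 to 0.18), Mmp11, Mmp15, Mmp23, Mmp24, Mmp28, Adamts2, Adamts5, Adamts8, Adamts9, Adamts13 and Adamtsl3. Adamts14 also turned with quantile normalization (0.037), aligned medians (0.015), the acinar covariate (0.15) and without both acinar-rich libraries (0.29). Adamtsl5 turned with aligned medians (0.018) and without both (0.023), Mmp12 without both (0.0079), and Timp3 with the covariate (0.11) and without both (0.049). The cause was not tested. Scalings moved the median of all genes by at most 0.03.

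Members ordered as Dusp6 (0) were 1 with Spry4 and 1 with the ERK output list (Mmp10 in both), 3 by the same 4 highest libraries, and 0 to 2 with 1 library left out. Those ordered against it (0) were 1 with recovered reads scaled by library total times a trimmed-mean factor (Adamts1) and 1 with quantile normalization (Adamtsl4). They were 2 by wide pairs, 2 by the same 4 libraries as the lowest, and 0 to 2 with 1 library left out. The measures by wide pairs and by the same 4 libraries were chosen after seeing the data. Members under 20 reads on average are limited by depth.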
